A study of Homo sapiens with 3 samples.

Results

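The interleukin and chemokine genes are described here in HuCCT1 cells, a cell line of cholangiocarcinoma, which is cancer of the bile ducts. All protein-coding genes whose symbol opens with IL, CXCL or CCL followed by a digit were taken, apart from IL6, IL6R, IL6ST and IL11, which gave 121 of 19671 genes. By role these were 38 interleukins, 38 receptor chains, 26 CC chemokines, 14 CXC chemokines, 4 antagonists or binding proteins and 1 enzyme, the amino acid oxidase IL4I1. The receptor of IL-11, IL11RA, stayed among the receptor chains because the rule named only those 4 genes.

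Interleukins and chemokines are secreted proteins through which cells direct inflammation. Interleukins bind paired receptor chains, and decoys or antagonists such as the IL-1 receptor antagonist hold that signal back. Chemokines form gradients that leukocytes follow, the CXC members with an ELR motif drawing neutrophils and most CC members drawing monocytes, T cells or eosinophils. Many of these genes are induced on demand by the transcription factors NF-kB and AP-1. In bile ducts, epithelial cells themselves release several of them, CXCL8 and CCL20 among them, during infection or obstruction.

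The question was where Strawberry Notch 1 (SBNO1), a nuclear helicase-like protein, and TAF4, a component of TFIID, which recognises core promoters, lay around these genes. Chromatin immunoprecipitation sequencing (ChIP-seq) peak lists were available for SBNO1, for TAF4 and for control immunoglobulin (IgG), all from HuCCT1 cells with no treatment named in the labels. There was 1 library for each antibody, made from pooled immunoprecipitates of several biological replicates per the methods of the study, so no replicate spread could be measured and no test was made. The lists held 16147, 12763 and 1598 peaks, respectively, with positions and a score of at most 1000, and how deeply each library was sequenced is unknown. Of 11 bile duct epithelial marker genes, 6 carried promoter peaks of both proteins, among them KRT19, SOX9 and EPCAM. The corresponding count was 0 of 8 for hepatocyte markers, 1 of 8 for leukocyte markers (CD68) and 1 of 6 for markers of fibroblasts and endothelium (COL1A1).

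The promoters were examined first. A promoter peak was a peak whose edge lay within 1 kb of a transcription start site (TSS) of the gene. SBNO1 promoter peaks were found at 11 of the 121 genes (9.09%, exact 95% Clopper-Pearson interval 4.63% to 15.7%), against 25.7% of all protein-coding genes. TAF4 promoter peaks were found at 9 genes (7.44%, interval 3.46% to 13.7%), against 31.9% of all genes. Both proteins were found at 8 promoters (6.61%, interval 2.9% to 12.6%), against 22.6% of all genes. In each case the share over all genes lay above the interval. No member had an IgG promoter peak, which allows a share of up to 3%, where 1.41% of all genes had one. Intervals cover counting error only, and neighbouring genes are not independent. In these lists, 11356 of the 16147 SBNO1 peaks and 6721 of the 12763 TAF4 peaks lay over 1 kb from every protein-coding TSS. The study instead reports most peaks of both proteins within 1 kb of a TSS. It also counts far fewer promoters bound than the 5057 (SBNO1) and 6279 (TAF4) genes found here. All shares here rest on the deposited lists, which thus differ from the calls that the study describes.

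**Figure D1:**
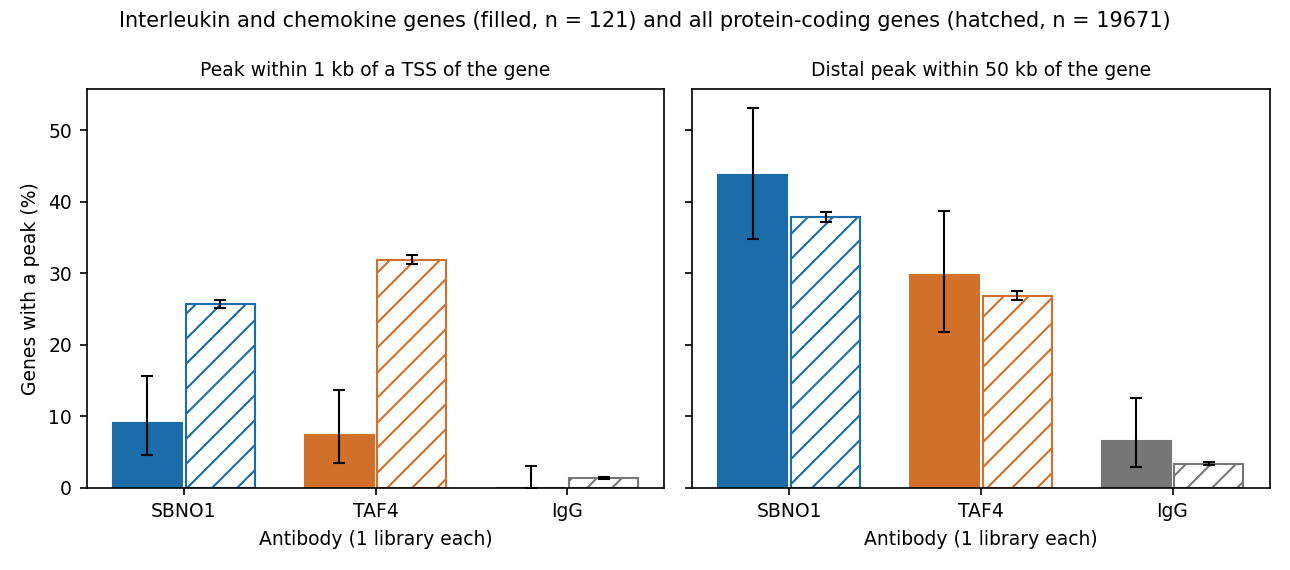
Share of genes with a peak (%, vertical axis) for each antibody (horizontal axis), at the promoter on the left and distally on the right. Filled bars are the 121 interleukin and chemokine genes, hatched bars all 19671 protein-coding genes, and whiskers exact 95% Clopper-Pearson intervals. Promoter shares of the members for SBNO1 and TAF4 (9.09% and 7.44%) sit below those of all genes (25.7% and 31.9%), while the distal intervals of the members for SBNO1 and TAF4 include the all-gene shares.

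Over all genes, promoters poor in G and C bases carried peaks less often, and the members were poorer in these bases than all genes. The median GC content of the promoter window, which ran from 250 bp before to 50 bp after the canonical TSS, was 51.7% for the members and 63.7% for all genes. In the window class below 50% GC, SBNO1 peaks were present at 3 of 54 members (5.56%), against 9.98% of all genes in that class. Between 50% and 60% GC they were present at 2 of 34 members (5.88%), against 28.9%. At 60% GC or more, 6 of 33 members (18.2%) had one, against 28.6%. For TAF4 the shares in the same order were 5.56%, 5.88% and 12.1% of members, against 9.91%, 33.5% and 36.9% of all genes. If each GC class of the members had carried peaks at the rate of all genes in that class, 24.7 members with an SBNO1 peak and 28.9 with a TAF4 peak would have been counted, more than the 11 and 9 found. The part of other sequence or activity differences in this gap was not tested.

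**Figure D2:**
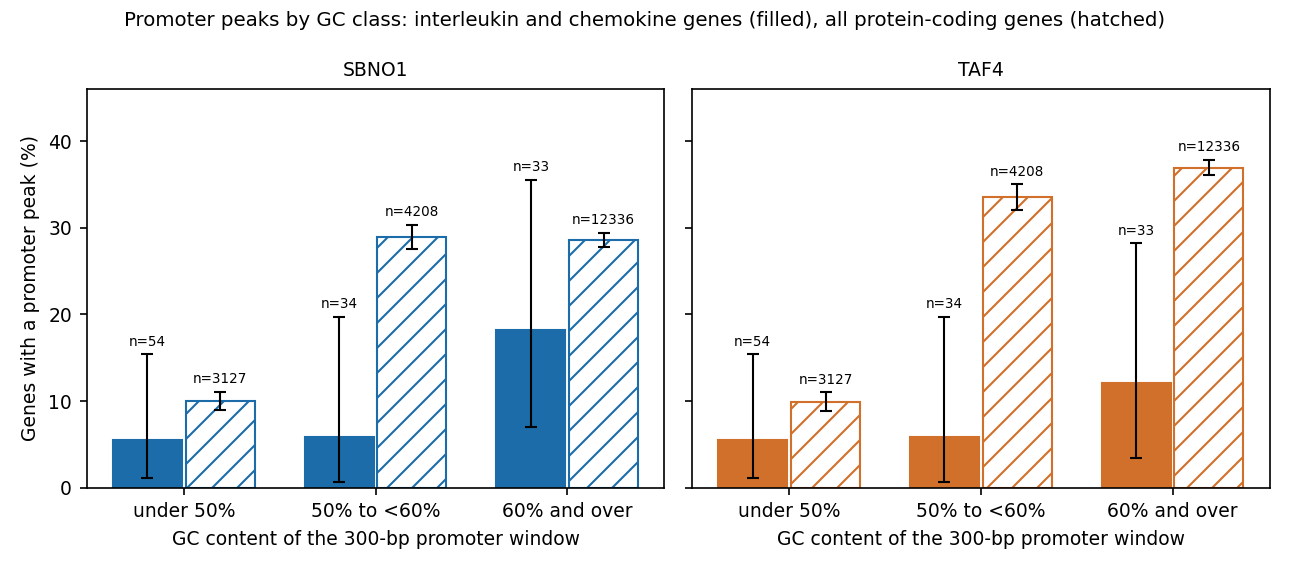
Share of genes with a promoter peak (%, vertical axis) by GC content of the 300-bp promoter window (horizontal axis), for SBNO1 on the left and TAF4 on the right. Filled bars are members, hatched bars all protein-coding genes, n is the number of genes, and whiskers are exact 95% Clopper-Pearson intervals. Members lie below all genes in all 3 classes, with overlapping intervals in the lowest class for both proteins and in the highest class for SBNO1.

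The 12 genes with a promoter peak of either protein were spread over the roles. They comprised 4 CXC chemokine genes (CXCL8, CXCL2, CXCL5 and CXCL16), 3 interleukin genes (IL18, IL23A and IL24), 4 receptor chain genes (IL1RAP, IL17RC, IL22RA1 and IL11RA) and the antagonist gene IL1RN. None of the 26 CC chemokine genes had a promoter peak of any antibody (interval 0% to 13.2%). Both proteins were present at CXCL8, CXCL2, IL18, IL23A, IL1RAP, IL17RC, IL11RA and IL1RN. At 7 of these 8 the SBNO1 and TAF4 peaks overlapped. No promoter peak of a member lay within 1 kb of a TSS of another protein-coding gene, so each of these peaks could be given to 1 gene.

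CXCL8 encodes interleukin 8, the main neutrophil attractant of human epithelia, and opens a cluster of CXC genes on chromosome 4. Its TSS was covered by an SBNO1 peak of 499 bp with a score of 964 and by a TAF4 peak of 304 bp with a score of 973. CXCL2, a close relative that also acts through the receptor CXCR2, ends the cluster. Its SBNO1 peak was 218 bp wide, began 48 bp upstream of the TSS and scored 1000, and its TAF4 peak covered the TSS with a score of 829. CXCL5, another CXCR2 ligand, had a TAF4 peak alone, centred at -6 bp from the TSS (upstream being negative) with a score of 933, and its nearest SBNO1 peak was 6.84 kb from the TSS. The other members in the cluster, CXCL1, CXCL3 and CXCL6, which are also CXCR2 ligands, had no promoter peak. The nearest SBNO1 peak was 129 kb from the TSS of CXCL1, 95.8 kb from that of CXCL6 and 17.9 kb from that of CXCL3. Thus 3 of the 6 members in this cluster had a listed promoter peak and 3 had none listed. The nearest IgG peak was at least 555 kb from the TSS of each member. The chemokine genes PF4V1, PF4 and PPBP lie between them and are not members because of their symbols.

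These promoters are shown because related sequences of the cluster differed in their peaks. Each line gives the 200 bases before the canonical TSS, in the direction of the gene, on GRCh38: CXCL8 at chr4:73740369-73740568 (plus strand), CXCL2 at chr4:74099196-74099395 (minus strand), CXCL1 at chr4:73869193-73869392 (plus strand), CXCL5 at chr4:73998678-73998877 (minus strand) and CXCL6 at chr4:73836478-73836677 (plus strand). Capitals mark exact matches on either strand to the AP-1 consensus TGACTCA, the NF-kB consensus GGNNTTTCC (N being any base) and the TATA box TATAAA.
CXCL8: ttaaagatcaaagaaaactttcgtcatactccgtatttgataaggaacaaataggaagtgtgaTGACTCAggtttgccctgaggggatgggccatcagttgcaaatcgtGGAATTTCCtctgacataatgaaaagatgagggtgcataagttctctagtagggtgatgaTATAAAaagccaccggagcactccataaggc
CXCL2: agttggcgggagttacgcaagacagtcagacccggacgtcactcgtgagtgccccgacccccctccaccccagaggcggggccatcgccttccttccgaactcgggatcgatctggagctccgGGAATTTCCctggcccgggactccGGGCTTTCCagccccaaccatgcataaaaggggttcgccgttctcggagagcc
CXCL1: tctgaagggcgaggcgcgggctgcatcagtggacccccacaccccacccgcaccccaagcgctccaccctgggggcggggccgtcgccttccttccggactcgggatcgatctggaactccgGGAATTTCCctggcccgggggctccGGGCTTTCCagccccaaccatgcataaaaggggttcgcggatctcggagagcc
CXCL5: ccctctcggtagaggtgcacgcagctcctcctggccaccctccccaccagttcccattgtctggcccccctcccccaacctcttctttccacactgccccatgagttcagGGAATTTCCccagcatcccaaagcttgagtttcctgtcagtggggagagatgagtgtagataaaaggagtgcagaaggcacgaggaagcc
CXCL6: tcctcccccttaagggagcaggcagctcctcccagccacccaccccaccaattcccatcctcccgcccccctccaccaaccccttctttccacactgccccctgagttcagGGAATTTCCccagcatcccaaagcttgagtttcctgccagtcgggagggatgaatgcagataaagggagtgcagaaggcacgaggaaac
CXCL8 held 1 match of each motif, the AP-1 match starting at position -137 from the TSS, the NF-kB match at -91 and the TATA box at -31. CXCL2 and CXCL1 each held 2 NF-kB matches, and CXCL5 and CXCL6 held 1 each. The 200 bases of CXCL1 and CXCL2 were 78.2% identical in a global alignment with a longest shared run of 42 bases. Peaks were listed at the CXCL2 promoter and not at that of CXCL1. CXCL5 and CXCL6 were 86.1% identical with a longest shared run of 45 bases, and a TAF4 peak was listed at CXCL5 and not at CXCL6. An NF-kB match was therefore present both with and without a listed peak.

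IL1RN encodes the IL-1 receptor antagonist, which occupies the IL-1 receptor without signalling. Its SBNO1 peak (score 932) and TAF4 peak (score 1000) covered an alternative TSS inside an intron of the longer transcripts, the SBNO1 peak ending 9624 bp before the canonical TSS. IL23A encodes the specific chain of interleukin 23, which maintains T helper 17 cells. At its canonical TSS the SBNO1 peak scored 951 and the TAF4 peak 1000. IL18 encodes a cytokine of the IL-1 family that epithelia store as a precursor. Its TAF4 peak covered the TSS with a score of 1000, whereas its SBNO1 peak, with a score of 432, lay 449 bp inside the gene in an intron and did not overlap TAF4. IL24, an epithelial cytokine of the IL-10 family, had an SBNO1 peak alone (score 868), 737 bp inside the gene from an alternative TSS.

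Besides CXCL8, IL1RN and IL23A were the genes at which both proteins were present and the SBNO1 promoter peak held an AP-1 consensus. Their 200 bases before the TSS at the peak are given for that reason, IL1RN at chr2:113117693-113117892 and IL23A at chr12:56338684-56338883, both on the plus strand of GRCh38. Capitals mark the same motifs as above.
IL1RN: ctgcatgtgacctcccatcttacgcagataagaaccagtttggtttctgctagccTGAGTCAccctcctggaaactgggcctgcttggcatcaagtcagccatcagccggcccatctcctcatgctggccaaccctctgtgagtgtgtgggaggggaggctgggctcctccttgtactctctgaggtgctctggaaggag
IL23A: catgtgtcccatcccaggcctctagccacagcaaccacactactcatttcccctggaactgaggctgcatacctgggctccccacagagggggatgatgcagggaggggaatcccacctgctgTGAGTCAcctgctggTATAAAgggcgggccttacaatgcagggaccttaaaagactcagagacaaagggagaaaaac
The AP-1 match started at position -145 from the TSS of IL1RN and at -77 from that of IL23A. IL23A also held a TATA box in this stretch, and IL1RN did not.

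Among the receptor chains, IL1RAP encodes the shared co-receptor of IL-1, IL-33 and IL-36. It had a TAF4 peak with a score of 951 and an SBNO1 peak with a score of 428 at its first promoter, and a further SBNO1 peak (564) at an alternative TSS inside the gene, 48853 bp from the canonical one. IL17RC encodes a chain of the IL-17 receptor of epithelia, and its TSS was covered by SBNO1 (score 674) and TAF4 (score 1000). IL11RA had scores of 534 for SBNO1 and 816 for TAF4. IL22RA1, the epithelial chain of the IL-22 receptor, had an SBNO1 peak alone at its TSS with a score of 624. CXCL16, a membrane-bound chemokine, also had an SBNO1 peak alone. It scored 1000 and lay in an intron, 478 bp from an alternative TSS and 1261 bp from the canonical TSS.

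The scores were read within each list. The 12 SBNO1 promoter peaks of members scored from 428 to 1000 with a median of 771, and the median of all 4791 SBNO1 promoter peaks was 850. The 9 TAF4 promoter peaks of members scored from 816 to 1000 with a median of 973, and that of all 6042 was 1000. The scores come from separate lists and were not compared between proteins. The TAF4 peaks were centred at -182 to -6 bp from the TSS. The centres of the SBNO1 peaks ranged from -284 bp to 911 bp, the widest offsets being those at IL24, IL18 and CXCL16. Keeping only peaks at or above the median score of each list left SBNO1 at 5 members (CXCL2, CXCL8, CXCL16, IL1RN and IL23A) and TAF4 at 6 (CXCL8, IL1RN, IL17RC, IL18, IL1RAP and IL23A). Under this filter the shares of all genes were not counted.

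**Figure D3:**
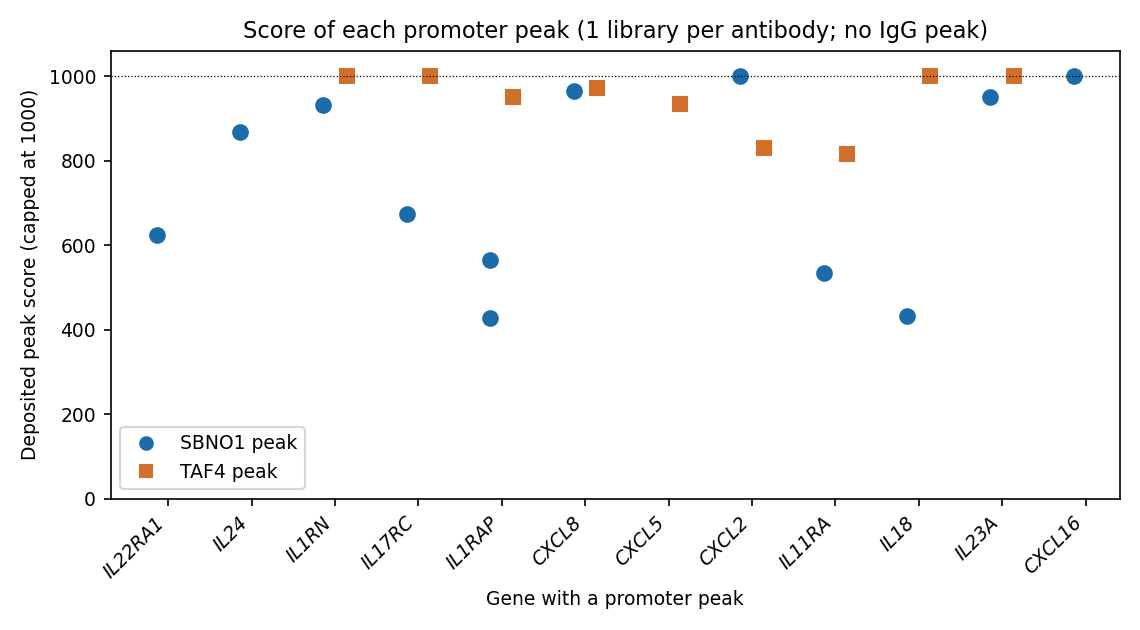
Deposited score of each promoter peak (vertical axis, at most 1000, dotted line) for the 12 genes with one (horizontal axis, in chromosome order). Circles are SBNO1 peaks and squares TAF4 peaks, each from 1 library, and IL1RAP has 2 SBNO1 peaks. TAF4 peaks lie between 816 and 1000 and SBNO1 peaks between 428 and 1000, on scales that were not compared.

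Few of the members that lacked a promoter peak of a protein had a peak of it just beyond 1 kb. Among these, CCL2, which attracts monocytes, was the closest for SBNO1, with a peak of score 1000 at 2216 bp from the TSS and no TAF4 peak in reach. Among members without a TAF4 promoter peak, the closest for TAF4 was IL4, the cytokine of T helper 2 cells, at 3215 bp (score 1000). CCL28, a mucosal chemokine and likewise without a promoter peak, followed at 3859 bp for both proteins with scores of 703 (SBNO1) and 685 (TAF4). At CCL20, the ligand of CCR6, an SBNO1 peak (score 721) lay 3942 bp from the TSS and a TAF4 peak (score 415) lay 4061 bp from it.

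The members' promoters also differed from all promoters in their motifs, but these shares were not standardised for GC content. The median GC content of the windows was 51.7% for the members and 63.7% for all genes. Related promoters, such as those of CXCL1 and CXCL2, were counted as separate genes. In the same 300-bp window, an NF-kB consensus was found at 23 members (19%) and at 6.41% of all genes, and an AP-1 consensus at 14 members (11.6%) and 3.55% of all genes. A TATA box was found at 37 members (30.6%) and 9.65% of all genes. The GC box GGGCGG, which KLF and SP factors recognise, was less frequent, at 44 members (36.4%) and 61.6% of all genes. Matches were exact, were sought on both strands, and matches of different motifs could share bases. In this window at the canonical TSS, the 12 members with a promoter peak held NF-kB in 4 cases (33.3%), a GC box in 6 (50%), a TATA box in 3 (25%) and AP-1 in 2. At IL1RN, IL24 and CXCL16 the promoter peaks lay outside the window, so their matches were not read under a peak. The AP-1 match under the IL1RN peak is therefore not counted here. The corresponding shares among the other 109 members were 17.4%, 34.9%, 31.2% and 11%. The 4 members with NF-kB were CXCL8, CXCL2 and CXCL5, which belong to 1 cluster, and IL1RN, whose match in this window lay away from its promoter peaks. No interval was computed for these shares. A match is a description of the letters and not a site of binding.

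Next, peaks away from promoters were examined. A distal peak lay over 1 kb from every protein-coding TSS and within 50 kb of the gene. Distal SBNO1 peaks were found near 53 members (43.8%, interval 34.8% to 53.1%), against 37.9% of all genes. Distal TAF4 peaks were found near 36 members (29.8%, interval 21.8% to 38.7%), against 26.8%. Distal IgG peaks were found near 8 members (6.61%, interval 2.9% to 12.6%), against 3.39%. For all 3 antibodies the share of all genes lay within the interval of the members. If each GC class of promoters among the members had carried distal peaks at the rate of all genes in that class, the shares would have been 33.7% for SBNO1, 23% for TAF4 and 3.21% for IgG, of which the first lay below the interval of the members and the others within it. A distal SBNO1 peak without a distal TAF4 peak was seen at 20 members (16.5%), against 14.1% of all genes. The reverse was seen at 3 (2.48%), against 3.12% of all genes, the T helper 2 cytokine genes IL4 and IL13 and the chemokine gene CCL22.

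Joining both positions, 45 members (37.2%) had distal peaks of SBNO1 or TAF4 but no promoter peak, against 23.3% of all genes. This class can hold only genes without a promoter peak, which were more frequent among the members. Of such genes, 45 members had a distal peak and 64 did not, against 4584 and 8201 over all genes. A promoter peak without a distal peak was seen at 1 member (0.826%), IL11RA, against 17.3% of all genes. Both kinds of peak were present at 11 members (9.09%), against 17.7%, and 64 members (52.9%) had none, against 41.7%. Among the members with none were the 3 neighbouring interferon-induced chemokine genes CXCL9, CXCL10 and CXCL11.

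By role, distal SBNO1 peaks were near 19 of 38 interleukin genes, 15 of 38 receptor chain genes, 10 of 26 CC chemokine genes and 6 of 14 CXC chemokine genes. TAF4 was near 13, 8, 6 and 6 of these, respectively. IgG was near 5 interleukin genes and 3 CC chemokine genes and near no receptor chain or CXC chemokine gene. Because chemokine genes are short, the numbers were also set against the sequence searched. Distinct SBNO1 peaks amounted to 5.4 per Mb of the 14.3 Mb around the members, and to 4.48 per Mb around all genes. The corresponding TAF4 densities were 2.66 and 2.58 per Mb, and those of IgG 0.35 and 0.265 per Mb. Within the members, SBNO1 density was 8.19 per Mb for CXC chemokine genes and 8.03 per Mb for interleukin genes. It was 7.5 per Mb for CC chemokine genes and 3.25 per Mb for receptor chain genes. The median length of the receptor chain genes, 45.1 kb, was the greatest of these 4 roles. Their 7.39 Mb of searched sequence included the very long IL1RAPL1 (1369 kb) and IL1RAPL2 (1202 kb), with 1 and 0 distal SBNO1 peaks, respectively. Densities without these genes were not computed.

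**Figure D4:**
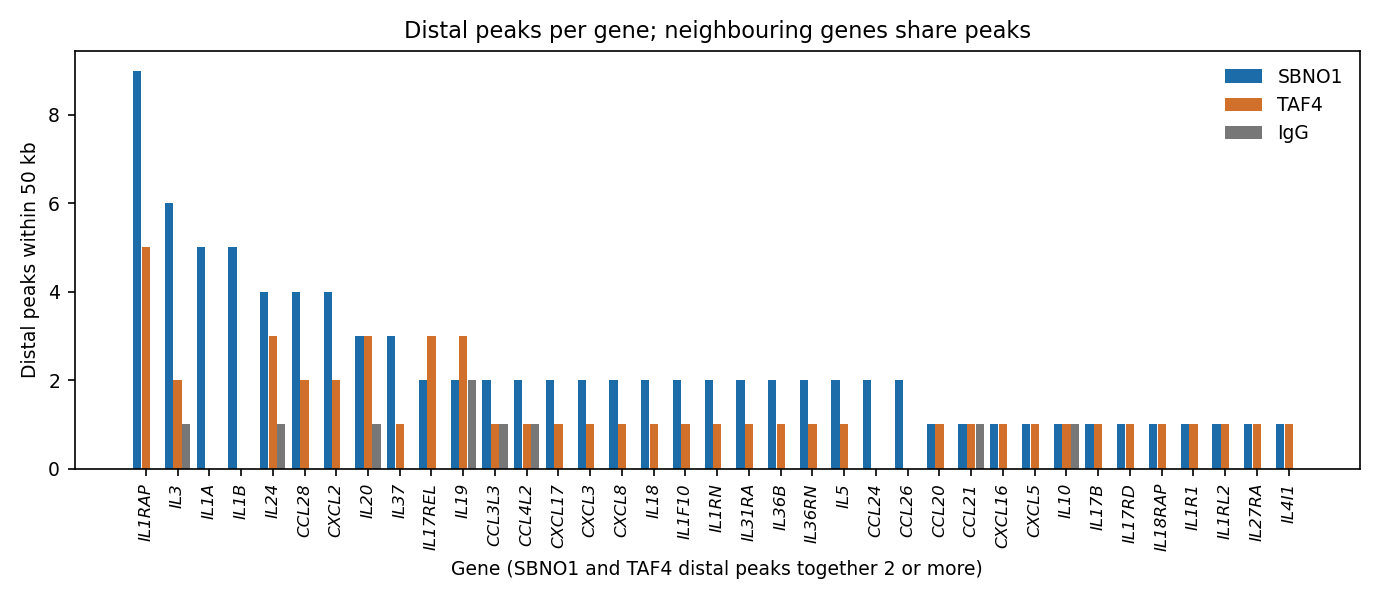
Number of distal peaks within 50 kb (vertical axis) for each member with 2 or more SBNO1 and TAF4 peaks together (horizontal axis), with SBNO1, TAF4 and IgG as separate bars from 1 library each. IL1RAP has 9 SBNO1 and 5 TAF4 peaks, and IL1A and IL1B have 5 SBNO1 peaks each and no TAF4 peak. Neighbouring genes share peaks, so the bars do not add up to distinct peaks.

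The number of distal peaks was then counted for each gene. Of the 121 genes, 68 (56.2%) had no distal SBNO1 peak, 28 (23.1%) had 1, 16 (13.2%) had 2 and 9 (7.44%) had 3 or more. The shares of all genes in the same order were 62.1%, 19.7%, 7.96% and 10.2%. IL1RAP had the highest number, with 9 SBNO1 and 5 TAF4 peaks and no IgG peak. Of its SBNO1 peaks, 2 lay upstream, 6 in introns and 1 downstream, and IL1RAP was the nearest gene to all of them. All 5 of the TAF4 peaks overlapped one of these. The scores of the SBNO1 peaks ranged from 626 to 1000. IL3, a growth factor of blood cell progenitors, followed with 6 SBNO1 and 2 TAF4 peaks. All 6 lay downstream of IL3 beyond the neighbouring gene CSF2, which was their nearest gene, and 1 of them overlapped an IgG peak.

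CCL28 and CXCL2 each had 4 SBNO1 and 2 TAF4 peaks, all without IgG. The neighbours IL24 and IL20, both ligands of the IL-20 receptors, had 4 and 3 SBNO1 peaks and 3 TAF4 peaks each, and an IgG peak lay near both. IL37 had 3 SBNO1 peaks and 1 TAF4 peak. CCL24, an eosinophil attractant, shared its 2 SBNO1 peaks, both with a score of 1000, with its neighbour CCL26, and neither gene had a TAF4 peak in reach. At CXCL8, SBNO1 peaks lay 35.7 kb (score 823) and 12.6 kb (score 1000) upstream of the TSS, and the nearer one overlapped a TAF4 peak with a score of 735. At CXCL5 an SBNO1 peak of score 1000 overlapped a TAF4 peak of score 810 at 6.84 kb from the TSS.

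Members lie in clusters, and the peaks were therefore also counted by cluster. There were 9 clusters of 3 or more members, with gaps under 250 kb, which held 51 of the 121 genes. The cluster of the IL-1 family on chromosome 2 holds the agonists IL1A and IL1B, the IL-36 genes, the anti-inflammatory IL37 and the antagonist genes IL36RN and IL1RN. All of its 9 members had a distal SBNO1 peak within reach, from 11 distinct peaks with scores of 484 to 1000. TAF4 overlapped 2 of these 11 peaks, and 5 of them held an AP-1 consensus in the central 200 bp. IL1A and IL1B, which signal fever and inflammation, shared 4 SBNO1 peaks in the space between them and each had 1 more on its outer side. None of these 6 peaks overlapped TAF4 or IgG.

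The CXC cluster on chromosome 4 (CXCL8, CXCL6, CXCL1, CXCL5, CXCL3 and CXCL2) had 7 distinct distal SBNO1 peaks, of which 3 overlapped TAF4 and 3 held AP-1, and CXCL6 and CXCL1 had no peak of any antibody in reach. In the cluster of IL10, IL19, IL20 and IL24 on chromosome 1, 3 of 5 distal SBNO1 peaks overlapped TAF4 and 2 IgG peaks were listed. The CCL2 cluster on chromosome 17, 6 genes for monocyte and eosinophil attractants, had a single distal SBNO1 peak, which lay within reach of CCL2, CCL7 and CCL11. The receptor cluster from IL1R2 to IL18RAP on chromosome 2, 6 genes of IL-1, IL-33, IL-36 and IL-18 receptor chains, had 2 distal SBNO1 peaks, both overlapping TAF4, within reach of IL1R1, IL1RL2 and IL18RAP. In the T helper 2 cluster of IL5, IL13 and IL4 on chromosome 5, SBNO1 peaks were near IL5 alone, 2 in number and 1 of them overlapping TAF4, and a further TAF4 peak lay near IL4 and IL13. The TSS nearest to both SBNO1 peaks was that of IRF1, at 1.29 and 1.42 kb, whereas IL5 lay 43463 and 30888 bp away. The cluster of IL11RA, CCL27, CCL19 and CCL21 on chromosome 9 had a single distal SBNO1 peak, near CCL21, where TAF4 and IgG peaks were listed as well. The cluster from CCL5 to CCL4L2, 10 genes, had peaks only near CCL3L3 and CCL4L2. These are near-identical copies of CCL3 and CCL4, so short reads there cannot be placed with certainty.

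**Figure D5:**
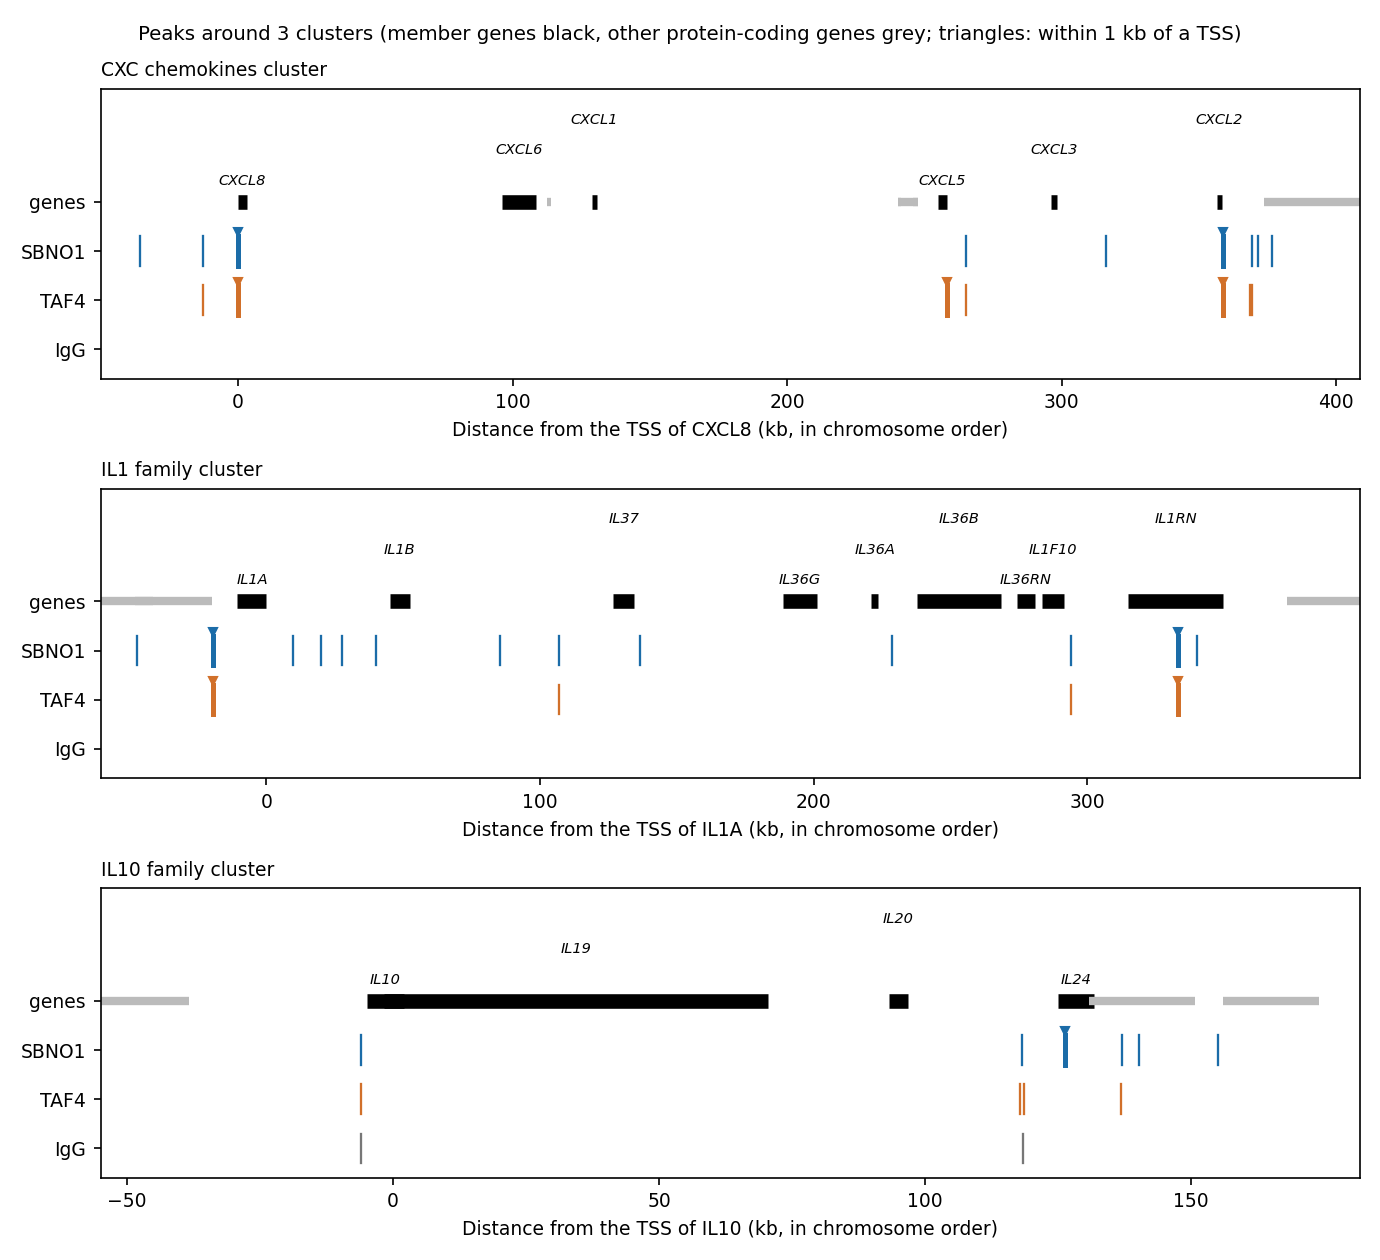
Peaks of SBNO1, TAF4 and IgG (rows) along 3 clusters, with distance from the TSS of CXCL8, IL1A or IL10 in kb on the horizontal axes. Black bars are member genes, grey bars other protein-coding genes, thin lines distal peaks, and thick lines with triangles peaks within 1 kb of the TSS of any protein-coding gene, which left of IL1A belong to a neighbour that is no member. CXCL1 and CXCL6 have no peak in reach, the IL-1 family has 11 distal SBNO1 peaks of which 2 overlap TAF4, and IgG peaks appear in the IL10 cluster alone of these 3.

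The 77 distinct distal SBNO1 peaks near members were then compared with all 11356 distal SBNO1 peaks. TAF4 overlapped 33 of the 77 (42.9%, interval 31.6% to 54.6%) and 49.5% of all. IgG overlapped 5 (6.49%, interval 2.14% to 14.5%) and 10.1% of all. Of the 77 peaks, 17 lay in the body of the closest member, 28 upstream and 32 downstream of it. The nearest gene of any kind was a member for 45 (58.4%), so the other peaks were closer to a gene that is no member. Of the 38 distinct distal TAF4 peaks near members, 34 (89.5%, interval 75.2% to 97.1%) overlapped SBNO1, and 83.2% of all distal TAF4 peaks did.

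An AP-1 consensus stood in the central 200 bp of 31 of the 77 peaks (40.3%, interval 29.2% to 52.1%), against 36.6% of all distal SBNO1 peaks and 3.9% of windows of the same size 1 kb to either side. An NF-kB consensus stood in 8 (10.4%, interval 4.59% to 19.4%), against 6.22% of all distal SBNO1 peaks and 2.6% of the windows to the side. Both shares over all peaks lay within the intervals. Of the 44 peaks without TAF4, 22 (50%, interval 34.6% to 65.4%) held AP-1 and 2 (4.55%) held NF-kB, with a median width of 328 bp and a median score of 790. Of the 33 with TAF4, 9 (27.3%, interval 13.3% to 45.5%) held AP-1 and 6 (18.2%) held NF-kB, with a median width of 459 bp and a median score of 1000. The intervals overlapped, and over all distal SBNO1 peaks the AP-1 shares were 40.1% without and 33.1% with TAF4. The NF-kB shares over all distal SBNO1 peaks were 5.98% without and 6.46% with TAF4, against intervals near the members of 0.555% to 15.5% and 6.98% to 35.5%. Searched in the whole peak, NF-kB was held by 7 of the 33 with TAF4 (21.2%, interval 8.98% to 38.9%). The share over all distal SBNO1 peaks with TAF4 was then 14%, within that interval. The peak downstream of IL3 that overlapped IgG was among the 6 with NF-kB in the central 200 bp.

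The central 120 bases of 3 distal SBNO1 peaks are printed as examples of these AP-1 matches near genes of the IL-1 system. For each of the 10 members with the most distal SBNO1 peaks, 1 peak that overlapped no IgG peak was read, the highest-scoring one and, among equal scores, the widest, which gave 8 distinct peaks. Of these, 3 held the consensus in the bases read. The choice among equal scores, as at IL1RAP with 3 peaks at 1000, is arbitrary. They lie on GRCh38 at chr3:190566463-190566582 in an intron of IL1RAP, at chr2:112804237-112804356 between IL1A and IL1B, and at chr2:112869663-112869782 upstream of IL1B, and are written on the plus strand with AP-1 in capitals.
IL1RAP: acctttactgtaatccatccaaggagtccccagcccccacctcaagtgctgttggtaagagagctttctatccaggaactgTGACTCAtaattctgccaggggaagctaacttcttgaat
IL1A: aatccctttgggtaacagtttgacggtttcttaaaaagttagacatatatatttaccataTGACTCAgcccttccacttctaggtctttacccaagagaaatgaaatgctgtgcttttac
IL1B: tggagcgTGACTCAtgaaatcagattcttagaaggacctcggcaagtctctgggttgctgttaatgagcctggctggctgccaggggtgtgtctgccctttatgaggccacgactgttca
The peak in IL1RAP scored 1000 and overlapped TAF4. The peaks named for IL1A (score 831) and IL1B (score 1000) did not overlap TAF4.

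Peaks of the IgG control were near 8 members: IL10, IL19, IL20, IL24, IL3, CCL21, CCL3L3 and CCL4L2. They came from 5 distinct peaks with scores of 557 to 845, all between genes. All 5 overlapped SBNO1 and 4 overlapped TAF4. Without SBNO1 peaks that overlap IgG, IL10, IL19 and CCL21 no longer had a distal SBNO1 peak, and IL10 and CCL21 no longer had a distal TAF4 peak when TAF4 peaks that overlap IgG were left out. IL10 encodes the main anti-inflammatory interleukin, and CCL21 guides lymphocytes into lymph nodes. No promoter peak of a member overlapped IgG.

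The other genes of the same pathways were counted from lists of their own, to be read against the 25.7% (SBNO1), 31.9% (TAF4) and 22.6% (both) of all genes with a promoter peak. Of 23 chemokine receptor genes, 2 had an SBNO1 promoter peak (CCR3 with a score of 531 and CCRL2 with 928) and none had TAF4. None of 6 chemokine genes with other names, such as CX3CL1 and XCL1, had a promoter peak. A further list of 12 genes held cytokine and receptor genes with other names, together with CASP1, NLRP3 and PYCARD. Of these 12, only CSF2, a growth factor of myeloid cells, carried both. Of 23 signal transducers downstream of the receptors, 7 had SBNO1, 7 had TAF4 and 6 had both, among them the adaptors MYD88, TAB1 and TAB3. The transcription factor gene STAT2 also carried both, and an IgG peak (score 420) was listed there as well. Of 14 suppressors of signalling, 5 had SBNO1, 8 had TAF4 and 4 had both, namely SOCS3, SOCS4, SOCS5 and PTPN6, and at PTPN6 an IgG peak (score 622) was also listed. Of the 4 genes left out by the rule (IL6, IL6R, IL6ST and IL11), 3 had promoter peaks of both proteins, and all 4 had a distal SBNO1 peak.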

How the data were processed

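ChIP-seq peak lists were used from 3 libraries of HuCCT1 cells, 1 each for SBNO1, TAF4 and IgG, with groups taken from the antibody in the labels. Chromatin was cut with an enzymatic kit. The submitters' processing notes name Bowtie2 2.5.4, Genrich 0.6.1 and the build GRCh38.p14, whereas the methods of the study name normR as the peak caller, and which of the callers made these lists could not be settled. The peak threshold, the treatment of duplicate reads and the use of IgG as control in the calls are not given in the sources used here. Each deposited peak carries a score, a whole number of at most 1000 whose scaling the authors do not state, and which served here only within a list. The lists hold no read counts, so the depth and the precision it gives are unknown.

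Genes and TSS of protein-coding transcripts were taken from GENCODE release 44 (19671 genes, 78506 TSS), leaving out 18 Y copies of pseudoautosomal genes, of which 2 (IL3RA and IL9R) were members. Reads from these regions fit X and Y alike. Distances were measured from the nearest peak edge, peaks overlapped when they shared 1 bp or more, and a peak could count for several genes. As a check of the genome copy, 152 of 152 RefSeq promoter windows (GRCh38.p14) of 106 members were identical to the sequence used, and no peak passed a chromosome end. Named genes were those with a promoter peak, those near an IgG peak, the 10 with the most distal SBNO1 peaks (ties by symbol, by which CCL24 was taken from 16 genes with 2 peaks), and clusters of 3 or more genes. Genes just beyond 1 kb, and single peaks at CXCL8, CXCL5, IL4, IL13 and CCL22, were named after their values were seen. Of the other pathway lists, genes with both promoter peaks were named, and not every one of them is reported here. The members and lists were chosen with earlier results of these data known, so no count here is independent of those results. Shares carry exact 95% Clopper-Pearson intervals from scipy 1.17.1, upstream sequences were aligned with biopython 1.88, and the functions were tested on simulated data with planted peaks. Alternatives were other distances, score filters, overlap rules, motif windows, 1 TSS per gene, the nearest TSS or gene and lists without IgG peaks.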

Additional observations from a re-analysis of the deposited data

How the results depend on the processing

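Of the 51 values obtained under another setting, 38 moved by no more than 1.5 times, or for the percentages stayed within the interval, and 13 moved further. With only peaks at or above the median score of each list, SBNO1 promoter peaks remained at 5 members and those of both proteins at 3, distal SBNO1 peaks at 33, distal TAF4 peaks at 16 and distal IgG peaks at 0, and 34 distinct distal SBNO1 peaks were left. The shares of all genes under this score filter were not counted. With distal peaks given to their nearest gene alone, 28 members had SBNO1, 16 TAF4 and 2 IgG, where the shares of all genes fell to 20.7%, 13.7% and 1.78%. A distal window of 20 kb left 22 members with TAF4, against 17.3% of all genes, and 4 with IgG, against 2.08%. It also left 50 distinct SBNO1 peaks. A window of 100 kb gave 13 members with IgG, against 5.59% of all genes. By construction these settings use fewer peaks, assign each peak to 1 gene or change the search width. Promoter distances of 500 bp and 3 kb gave 10 and 12 members with SBNO1, and 9 with TAF4 in each case. The shares of all genes at these distances were 24.6% and 28.4% for SBNO1, and 31.1% and 33.4% for TAF4. The share of distal SBNO1 peaks overlapping TAF4 ranged from 38.2% to 42%, and that with AP-1 from 35.3% to 50.6%. No paired analysis was possible because only 1 library was made for each antibody, and no sample could be left out. Missing peaks cannot be read as absent binding, since the depth of the libraries is unknown.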
